A study of Mus musculus with 14 samples.

Results

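A pair of fetal liver sections of a C1qa cross held a large amount of tissue outside the liver, and this non-liver tissue is described here. It was mapped by Visium, which counts RNA in small barcoded areas (spots) of a formalin-fixed section, each spot covering several cells. A spot counted as non-liver when it had at least 1000 detected genes and drew under 0.5% of its UMIs (counted RNA molecules) from 10 genes of hepatocytes: Alb, Afp, Apoa1, Apoa2, Ttr, Fgb, Fga, Ahsg, Serpina1a and Apob. Spots of the same section at 0.5% or more were the liver spots. The members were thus chosen by the measured levels of these 10 genes. There were 789 non-liver spots, 566 in the WT4 section and 223 in the C1qa KO4 section, among 15985 passing spots of the 14 sections of the series, beside 606 liver spots (240 and 366). The name fetal liver section in the labels therefore covered a minority of liver spots in WT4, where 70.2% of spots were non-liver, and a majority in KO4, where 37.9% were.

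The series mapped hematopoietic organs of mice: fetal liver, bone marrow and spleen. WT4 (wild type) and KO4 (knockout of the complement gene C1qa) are E14.5 embryos without treatment, littermates of a cross of C1qa heterozygous mice. WT2 and KO2 are their counterparts from another dam, and the remaining fetal livers, labelled E14.5 and E13.5, came from purchased wild-type mice. There is 1 section of each kind, so genotype, embryo and plane of section cannot be told apart and the genotypes were not compared. Non-liver spots made up 5.60% of passing spots in WT2 (130 spots) and 3.45% in KO2 (74 spots), and 0 of 854 and 0 of 491 in the purchased E14.5 and E13.5 livers.

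At this stage of mouse development the liver is the main site of blood formation and lies below the heart and lungs, beside the stomach, pancreas and gut and inside a body wall of muscle, cartilage and connective tissue. Skeletal muscle fibres then carry embryonic myosin, encoded by Myh3, together with skeletal alpha-actin, encoded by Acta1. Fibroblasts lay down type I collagen, whose main chain is encoded by Col1a1, and cartilage is built from type II collagen, encoded by Col2a1. Hox genes lie in 4 clusters and are used in order along the body axis, the low-numbered paralogue groups at the front and the high-numbered groups towards the tail and the ends of the limbs.

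The 566 non-liver spots of WT4 held 23076350 UMIs (median 40354 per spot) and the 223 of KO4 held 4899164 (median 19121). The liver spots held 16519311 UMIs in WT4 (median 68441) and 11916497 in KO4 (median 30804), so that in both sections a liver spot held more UMIs than a non-liver spot. All 806 and 589 in-tissue spots of the sections passed the gene minimum. C1qa was counted 569 times in the non-liver and 454 times in the liver spots of WT4, and 0 times and 1 time in KO4, as the labels say. The sections stood apart in blood genes of the early embryo. The summed level of Hbb-y, Hba-x and Hbb-bh1, the embryonic globins, was 5263.5 CPM (counts scaled to a common total of UMIs) in the non-liver spots of WT4 and 255.8 CPM in those of KO4, against 18.1 CPM in WT2 and 90.4 CPM in KO2. The part of this in the results was not tested. WT4 and KO4 shared 273 spot barcodes, which name positions on a slide and not cells.

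The 3 marker genes given for this tissue, Col1a1, Myh3 and Acta1, marked it to different extents. Col1a1 was detected in all 566 non-liver spots of WT4, at 158 CPM in the lowest, 1834 CPM in the median and 11737 CPM in the highest spot, and in all 223 of KO4, at 199, 1839 and 10300 CPM. Its median was 137 CPM in the liver spots of WT4 and 223 CPM in those of KO4. The ranges of the classes overlapped, since the highest liver spots reached 6795 and 8933 CPM. Myh3 had at least 1 UMI in 61.7% of the non-liver and 31.7% of the liver spots of WT4, and in 17.0% and 13.1% in KO4. Acta1 was seen in 61.3% and 27.1% in WT4 and in 14.8% and 6.01% in KO4. At least 1 UMI of a muscle gene was thus seen in most non-liver spots of WT4 and in a small share of those of KO4. Col1a1 was seen throughout both. Detection of 1 UMI does not make a spot muscle: the median non-liver spot of WT4 had 70.0 CPM of Myh3 and 63.8 CPM of Acta1.

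The 10 genes took a median of 0.00604% of UMIs in the non-liver spots of WT4 and 1.49% in its liver spots, and 0.0286% and 1.44% in KO4. There was no UMI of any of the 10 in 98 non-liver spots of WT4 and in 30 of KO4. The 3 spots nearest to the limit from below had 0.450 to 0.459% in WT4 and 0.484 to 0.495% in KO4, and the 3 nearest from above 0.505 to 0.519% and 0.500 to 0.537%. Albumin, the main plasma protein made by hepatocytes, was at 89.5 CPM in the non-liver and 6230 CPM in the liver spots of WT4, and at 258 and 5264 CPM in KO4. Spots between the classes were few in WT4 and more frequent in KO4: 18 and 30 spots lay from 0.25% to under 0.5%, and 34 and 48 from 0.5% to under 1%. These genes chose the spots, so that their levels are given as a description.

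**Figure D1:**
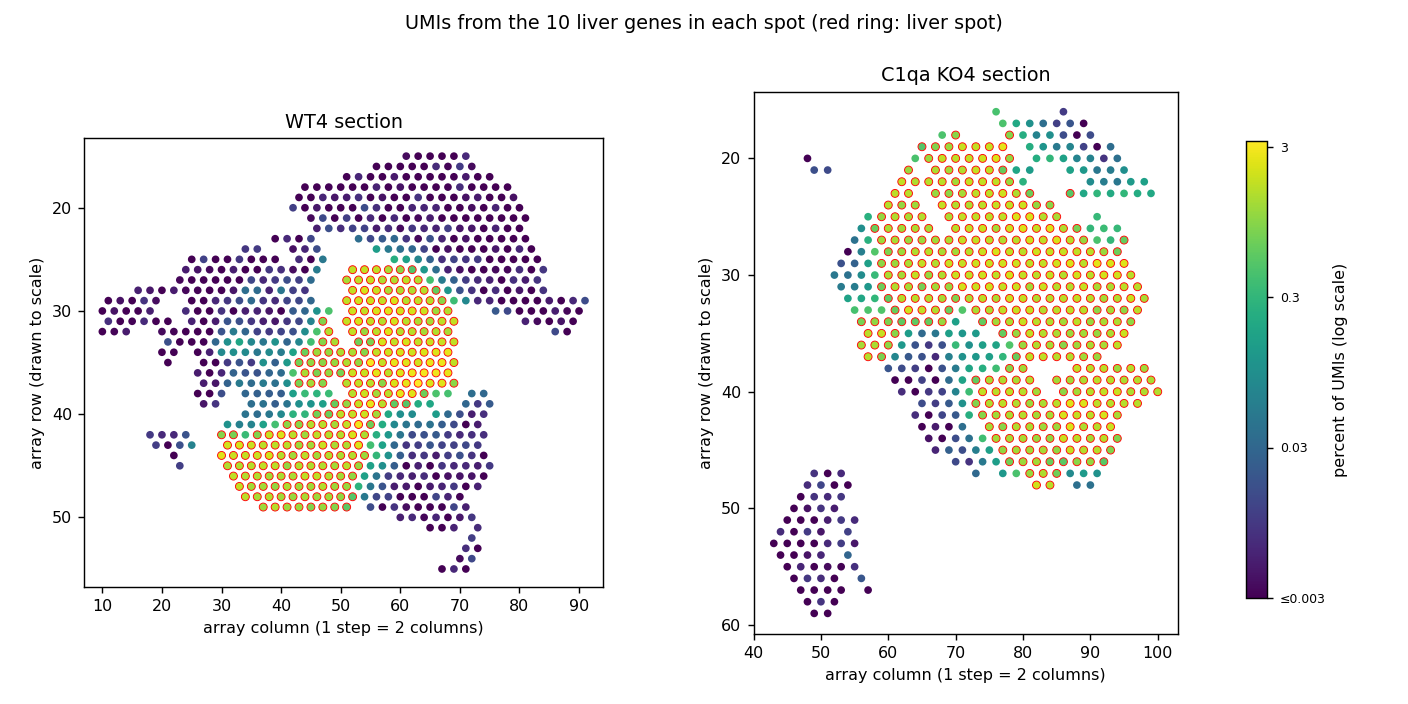
Each point is a spot at its place on the array (horizontal, array column; vertical, array row), coloured by the percent of its UMIs from the 10 liver genes on a log scale, with liver spots ringed in red. In WT4 the non-liver tissue wraps around the liver on 3 sides; in KO4 it lies in separate pieces, the largest of 77 spots.

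Non-liver spots lay together. Of the neighbours of non-liver spots, 96.9% were non-liver in WT4 and 90.4% in KO4. In WT4 they formed 3 connected pieces, of 430, 126 and 10 spots, and in KO4 9 pieces, of which 4 held at least 10 spots (77, 59, 48 and 23). The median non-liver spot was 6 steps from the nearest liver spot in WT4 (at most 16) and 3 steps in KO4 (at most 21), where 1 step is the distance between adjacent spots.

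For each section the counts of the spots were summed per class, and non-liver was set against liver within the section. With the edgeR quasi-likelihood test, paired by section and with Benjamini-Hochberg adjustment, 7182 of 19121 tested genes passed an adjusted p under 0.05 (37.6%), 4491 higher (23.5%) and 2691 lower (14.1%) in the non-liver spots. The classes were made from expression, so these calls describe how far the classes lie apart and nothing more is read from them. The split between higher and lower calls depended on the scaling: 62.5% of calls were higher with TMM factors, 48.2% with upper-quartile factors and 76% with library totals. The median log2 change over all tested genes moved from 0.09 to -0.11 and 0.34 with these scalings, and changes are to be read relative to it. Of the tested genes, 14524 (76%) had the same sign in both sections. A summed count does not tell apart fewer cells of a type in a spot and less RNA per cell.

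Tissues other than liver were read from 26 lists of organ genes. Counts of called genes in a list are to be read beside all tested genes, of which 23.5% were called higher and 14.1% lower. The summed CPM of a list was higher in the non-liver spots in 25 lists in WT4 and in 22 in KO4, in 22 of them in both, and 14 lists were over 2-fold higher in both sections. Smooth muscle stood 11.2-fold higher in WT4 and 10.6-fold in KO4, heart muscle 8.33- and 6.91-fold, and connective tissue 6.04- and 4.58-fold. In WT4 the heart list was highest in the muscle-rich Zic1 and Acta1 regions described below (852.0 and 919.2 CPM). Myh7 (397.4 and 505.5 CPM) and Tnnt2 (432.0 and 386.6 CPM) made up most of it there. Myh6, Myl7, Nppa and Nkx2-5 lay between 0.49 and 8.84 CPM in these regions, so the list does not by itself show heart tissue. The lists of the eye, of the thymus and of steroid-making cells of the adrenal cortex and gonad were at 11.8 to 31.2 CPM in the non-liver spots, with 0 of their 20 tested genes called in either direction. The intestinal list was lower in the non-liver spots of both sections, at 37.5 against 82.9 CPM in WT4 and 80.2 against 94.9 CPM in KO4. Its member Fabp2, an intestinal fatty acid binding protein that these liver spots also held, was at 1.13 against 9.02 CPM and 0.204 against 7.80 CPM. In both sections this difference was smaller than that between the list sums, so Fabp2 made up only a part of it.

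**Figure D2:**
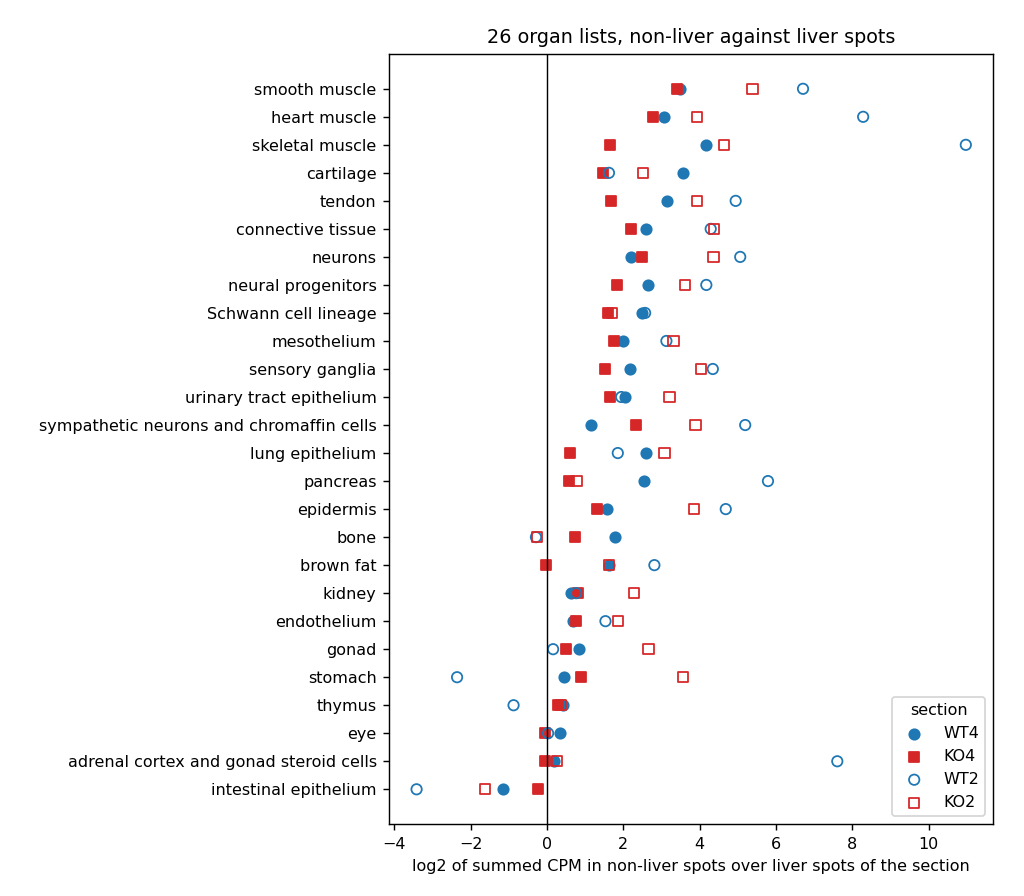
Each point is the log2 ratio of a list's summed CPM in non-liver over liver spots (horizontal axis) for 1 of 26 organ lists (vertical axis, ordered by WT4 and KO4 together), with filled points for WT4 and KO4 and open points for WT2 and KO2. Points lie right of 0 for 22 lists in both WT4 and KO4; the eye list of KO2 was at 0 in the non-liver spots and is not drawn.

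Skeletal muscle genes were high beside the liver, far more so in WT4. Of 18 tested genes 15 were called higher and 0 lower, and the list summed to 4106 CPM in the non-liver and 229.9 CPM in the liver spots of WT4 (17.9-fold) but to 559.9 and 177.9 CPM in KO4 (3.15-fold). Myh3 was at 570.5 CPM in the non-liver and 21.7 CPM in the liver spots of WT4, and at 53.5 and 10.8 CPM in KO4 (log2 change 3.41, SE 0.42). Acta1 was at 567.8 and 19.5 CPM in WT4 and at 54.9 and 9.31 CPM in KO4 (3.62, SE 0.41). In both sections the non-liver value lay above the liver value, while the liver spots of WT4 lay below the non-liver spots of KO4 for both genes. Myog, the factor that drives myoblasts into differentiation, was at 256.4 against 14.6 CPM in WT4 and 32.7 against 11.9 CPM in KO4. Ckm, the creatine kinase of mature muscle, was at 3.25 against 1.09 CPM and 1.22 against 1.93 CPM, with no common direction.

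Sequences upstream of 3 of these genes are printed because Acta1, Myh3 and Myog were high in the same regions of WT4. Each is the 200 bases before the annotated start in RefSeq (build GRCm38.p6), read 5′ to 3′ on the gene's strand: Acta1 at chr8:123894776-123894975 on the minus strand, Myh3 at chr11:67078100-67078299 and Myog at chr1:134289804-134290003 on the plus strand. Capitals mark 3 motifs searched on both strands: CANNTG (the E-box read by myogenic factors such as the product of Myog), TATAAA and the CArG box (read by serum response factor).
Acta1: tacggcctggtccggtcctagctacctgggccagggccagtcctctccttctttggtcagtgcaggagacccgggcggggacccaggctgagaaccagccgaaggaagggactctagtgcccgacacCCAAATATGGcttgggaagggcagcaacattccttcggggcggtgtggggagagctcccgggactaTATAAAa
Myh3: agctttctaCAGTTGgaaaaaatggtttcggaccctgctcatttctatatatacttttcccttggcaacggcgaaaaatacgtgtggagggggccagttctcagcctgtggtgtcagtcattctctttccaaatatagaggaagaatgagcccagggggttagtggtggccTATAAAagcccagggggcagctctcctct
Myog: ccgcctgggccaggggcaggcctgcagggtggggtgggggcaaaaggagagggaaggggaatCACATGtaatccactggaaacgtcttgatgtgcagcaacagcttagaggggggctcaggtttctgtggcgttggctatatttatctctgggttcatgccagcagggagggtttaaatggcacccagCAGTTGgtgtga

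Acta1 held a CArG box 73 to 64 bases before the start and a TATAAA at 7 to 2 bases. Myh3 held a CANNTG at 191 to 186 bases and a TATAAA at 29 to 24 bases, and Myog held CANNTG at 138 to 133 and at 12 to 7 bases. Over all 32851 promoter windows of 200 bases in the same table, 58.2% held CANNTG, 9.96% TATAAA and 1.18% a CArG box. Of the 16 windows of the 15 skeletal muscle genes that matched the table, 11, 5 and 2 held them. None of the motifs overlapped another in the printed windows. A match in these letters is a description and not a site of binding.

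Among the 12 myosin heavy chains tested, 7 were called higher and 1 lower. Myh7, the slow and cardiac chain, was at 123.4 against 5.27 CPM in WT4 and 13.7 against 3.86 CPM in KO4. Myh6, the chain of the atria, was at 2.90 against 1.21 CPM in WT4 and at 130.0 against 6.38 CPM in KO4. The non-muscle chains differed from each other: Myh10 was at 605.3 against 163.6 CPM and 687.3 against 147.9 CPM, while Myh9 was at 348.0 against 345.1 CPM in WT4 and 525.4 against 367.1 CPM in KO4. Myh7b was the chain called lower, at 17.3 against 21.9 CPM and 3.67 against 25.7 CPM. Of 13 muscle transcription factors 8 were called higher and 0 lower. Tcf21, a factor of mesenchyme around organs, had the largest log2 change of them (3.14, SE 0.22), at 80.1 against 10.6 CPM and 134.3 against 8.98 CPM. Mef2d was at 40.5 against 29.2 CPM in WT4 and 28.6 against 40.0 CPM in KO4.

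Connective tissue genes were high in both sections at similar levels. Of 16 tested genes 15 were called higher and 0 lower, and the list summed to 11928 CPM in WT4 and 9984 CPM in KO4 in the non-liver spots, against 1976 and 2182 CPM in the liver spots. Col1a1 was at 2193 against 393.8 CPM in WT4 and 2279 against 492.3 CPM in KO4 (log2 change 2.09, SE 0.15). Col3a1, the type III collagen of soft tissue, was at 4342 against 596.8 CPM and 3748 against 774.0 CPM. All 11 fibrillar collagens tested were higher in the non-liver spots of both sections, 9 of them called. Col2a1 was at 729.7 against 48.3 CPM in WT4 and 26.5 against 6.21 CPM in KO4. The cartilage list, 10 of 18 called higher and 0 lower, stood 11.7-fold higher in WT4 and 2.78-fold in KO4. Its matrix genes Matn1 and Acan were low, Matn1 at 5.16 and 9.19 CPM and Acan at 14.1 and 5.51 CPM in the non-liver spots of WT4 and KO4.

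Of 10 bone genes tested, 4 were called higher and 0 lower, beside 23.5% and 14.1% of all tested genes. Among the 4 was Runx2, the factor that starts bone formation, at 53.0 against 8.47 CPM in WT4 and 31.2 against 10.6 CPM in KO4. Ibsp and Bglap, made by mature osteoblasts, were at 1.08 and 3.03 CPM in the non-liver spots of WT4 and at 2.65 and 8.16 CPM in KO4, near their liver levels of 0.605 and 2.78 CPM and 2.69 and 9.15 CPM. All 6 tendon genes were called higher. Scx, the tendon cell factor, was at 94.6 against 11.3 CPM in WT4 and 34.5 against 14.3 CPM in KO4.

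Nerve and vessel genes were found beside both livers. All 12 neuron genes were called higher and the list stood 4.59-fold higher in WT4 and 5.67-fold in KO4, with Stmn2 at 56.0 against 6.30 CPM and 56.5 against 4.36 CPM and Tubb3, the neuronal tubulin, at 31.5 against 6.72 CPM and 71.8 against 8.31 CPM. Sox10, the factor of neural crest and Schwann cells, was at 22.2 against 2.85 CPM in WT4 and 35.5 against 4.36 CPM in KO4. Central nervous factors were near the liver level: Pax6 was at 0.867 against 0.424 CPM and 0.816 against 1.34 CPM, and Olig2 at 1.39 against 1.69 CPM and 2.65 against 3.94 CPM. All 8 smooth muscle genes were called higher, and Acta2, smooth muscle actin, was at 646.4 against 46.7 CPM in WT4 and 660.7 against 43.2 CPM in KO4. Endothelial genes (5 of 9 higher, 0 lower, beside 23.5% and 14.1% of all tested genes) stood 1.62- and 1.69-fold higher.

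Epithelial organs were seen through a few genes each. Cdx2, the factor of intestinal identity, was at 7.63 against 2.18 CPM in WT4 and 27.4 against 4.78 CPM in KO4. Barx1, a factor of stomach mesenchyme, was at 32.4 against 8.23 CPM and 80.0 against 13.8 CPM. Nkx2-1, a factor of lung epithelium, was at 27.0 against 1.27 CPM in WT4, and in KO4 at 5.10 against 4.45 CPM, so that its pooled log2 change (2.13, SE 0.78) came from WT4: within KO4 alone it was -0.06. The pancreas gene Cpa1, a digestive carboxypeptidase, was at 19.7 against 3.57 CPM in WT4 and at 7.14 against 6.46 CPM in KO4. Of the kidney list, Six2 was at 82.7 against 4.72 CPM and 164.3 against 18.0 CPM, while Pax2 (4.46 and 4.29 CPM), Pax8 (2.12 and 3.67 CPM) and Lhx1 (1.56 and 4.49 CPM), which also mark the forming kidney, were low in the non-liver spots of WT4 and KO4. Krt5 of basal skin cells was at 1.21 against 0.666 CPM in WT4 and 16.5 against 3.78 CPM in KO4.

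The 20 genes with the largest changes outside all lists, with at least 50 CPM in the non-liver spots of both sections, had log2 changes from 3.22 to 3.80. Among them were Wnt5a, a secreted signal of growing tissue, at 95.4 against 5.93 CPM in WT4 and 115.7 against 7.22 CPM in KO4, and Aldh1a2, which makes retinoic acid, at 215.5 against 12.5 CPM and 274.1 against 18.5 CPM. Prrx1, a factor of limb and body wall mesenchyme, was at 183.7 against 7.81 CPM and 64.3 against 7.22 CPM. The guidance signals Slit2 and Slit3 and the Hedgehog pathway factor Gli3 were in the same set, with log2 changes of 3.25, 3.40 and 3.23. Epcam, the adhesion molecule of epithelia, had the largest change (3.80, SE 0.36), at 137.6 against 4.24 CPM in WT4 and 56.7 against 7.05 CPM in KO4. The remainder were Myl4, Foxf2, Mgp, Tenm4, Fxyd6, Crabp1, Tubb2b, Mpped2, Pdgfc, Sparcl1, Lama4, Vcan and Cacna2d1. Among the largest falls were those of genes known from red cells, hepatocytes or metal binding: Pklr (log2 change -5.24), the pyruvate kinase of both, Rhag, Trim10 and Cldn13 of erythroid cells, Itih2, Apoc2 and Apom of hepatocytes, and the metallothioneins Mt1 and Mt2.

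Genes of blood cells and hepatocytes were lower beside the liver, and macrophage genes much less so. All 16 erythroid genes were called lower, and their sum was 40.9 times higher in the liver than in the non-liver spots of WT4 and 18.9 times in KO4. All 15 hepatocyte genes outside the rule were called lower, at 31.6 and 14.5 times higher sums in the liver spots. The neutrophil list (10 of 10 lower) was 4.71 and 7.89 times higher in the liver spots, and the megakaryocyte list (6 of 8 lower) 10.2 times in WT4 but 1.85 times in KO4. The megakaryocyte list was unevenly spread in the non-liver spots of KO4, with a median of 148.8 CPM and a highest spot of 27575 CPM. The liver spots of KO4 held 893.5 CPM of it. Macrophage genes were spread over both classes, at 258.7 against 307.9 CPM in WT4 and 280.9 against 282.8 CPM in KO4. Of these 14 genes 1 was called higher and 5 lower, beside 23.5% and 14.1% of all tested genes. Csf1r, the receptor that macrophages need to survive, was at 27.7 against 32.9 CPM and 36.5 against 33.3 CPM. The embryonic globins, carried by circulating red cells of yolk sac origin, stood nearer to the liver level than the adult globins did. In WT4 Hbb-y was at 3993 against 5998 CPM, while Hbb-bt, an adult beta globin, was at 541.4 CPM in the non-liver spots and had a log2 change of -5.23 (SE 0.33).

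Liver and red cell genes fell with distance from the border. In WT4 the 10 liver genes summed to 16261 CPM in liver spots surrounded by liver, 12437 CPM in liver spots that touched non-liver tissue, 2140 CPM in non-liver spots 1 step away, 450 CPM at 2 steps, 247 CPM at 3 steps and 50.2 CPM at 7 steps or more. In KO4 the same bins held 15439, 9817, 2482, 961, 327 and 49.3 CPM. The other hepatocyte genes, which the rule did not use, went from 818 CPM at 1 step to 70.1 CPM at 7 steps or more in WT4 and from 1000 to 65.9 CPM in KO4, and the erythroid genes from 11600 to 1516 CPM and from 17165 to 312.7 CPM. In KO4 the spots at 7 steps or more lay in pieces of tissue detached from the liver, mostly in the piece of 59 spots. The last bin of KO4 is thus separate tissue, counted across a gap. A spot at the border can lie on both tissues. The embryonic globins kept to a narrower range in WT4, between 4789 and 6938 CPM over the non-liver bins. Macrophage genes lay between 221 and 319 CPM there and between 173 and 405 CPM in KO4, with no steady fall. Skeletal muscle genes were highest at 7 steps or more in WT4 (5429 CPM) and 1 step from the liver in KO4 (1281 CPM).

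**Figure D3:**
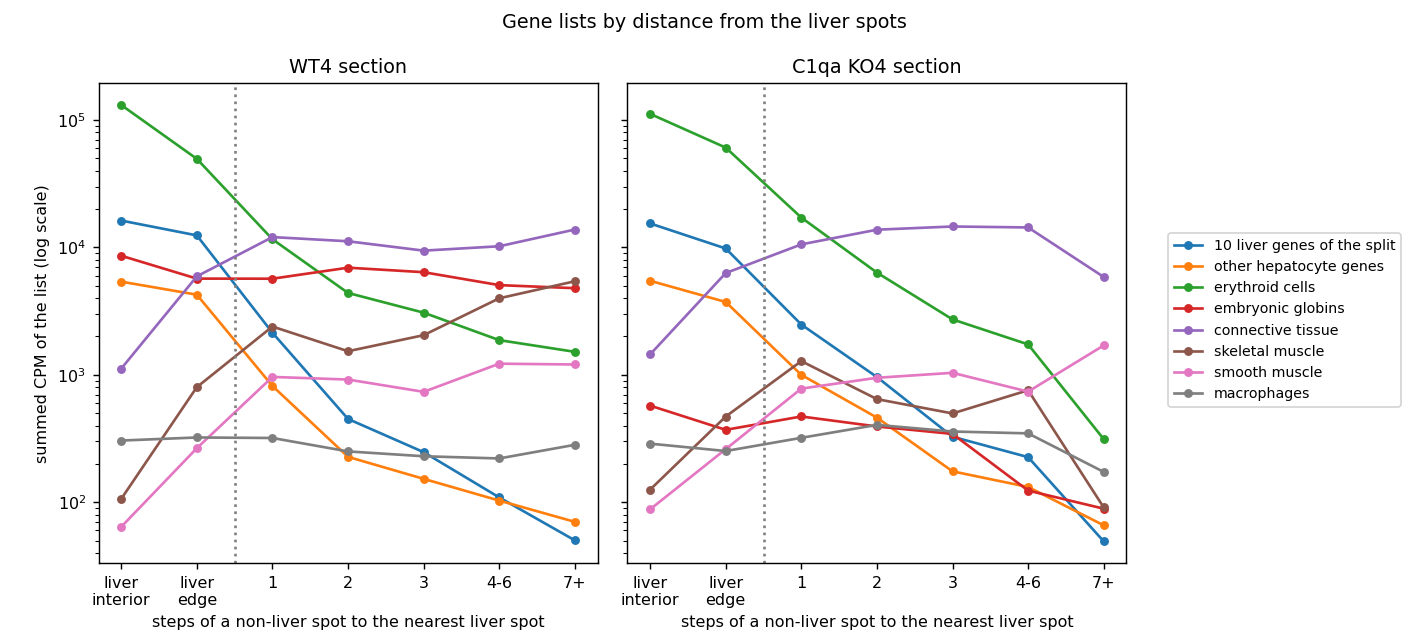
Lines give the summed CPM of 8 gene lists (vertical axis, log scale) in liver spots inside the liver and at its edge and in non-liver spots 1 to 7 or more steps away (horizontal axis), for WT4 and KO4. The 10 liver genes fall from 16261 to 50.2 CPM in WT4 and from 15439 to 49.3 CPM in KO4, while the macrophage line stays between 173 and 405 CPM. In KO4 the spots at 7 or more steps lie in pieces of tissue detached from the liver.

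Single spots were rich in an organ when its list had at least 20 UMIs and at least 10 times the CPM of the liver spots of that section. By this measure 475 of the non-liver spots of WT4 (83.9%) and 120 of KO4 (53.8%) were rich in at least 1 organ list, against 12 and 10 liver spots. In WT4 the most frequent were skeletal muscle (234 spots), smooth muscle (229), heart muscle (102), cartilage (94), tendon (88), connective tissue (85), neural progenitors (57), neurons (51) and lung epithelium (41). In KO4 they were smooth muscle (59), connective tissue (32), heart muscle (25), neurons (22), skeletal muscle (20) and sympathetic neurons and chromaffin cells (10). A spot could count for several lists, and a list could be high through a few of its genes. In the muscle-rich Zic1 and Acta1 regions described below, the smooth muscle list was at 1497.5 and 1576.5 CPM. Acta2 made up 964.0 and 987.0 CPM of it, and Myh11 had 1 UMI in each region. The heart list was mostly Myh7 and Tnnt2 there. The sympathetic and chromaffin list holds Hand2, which is also a factor of gut mesenchyme. In the KO4 spots of the Hand2 region, described below, Hand2 had 377 UMIs, Th 4 and Dbh 5. In the Aldh1a1 region of KO4 these genes had 426, 10 and 30 UMIs. Dbh was at 28.7 CPM in the Aldh1a1 region, against 4.64 CPM in the other non-liver spots. This list does not by itself show sympathetic or chromaffin cells. KO4 had 0 spots rich in the lung, tendon, bone or pancreas lists. The limits were harder to reach in KO4. Its non-liver spots held fewer UMIs (median 19121 against 40354 in WT4). Its liver spots had more of these lists, for instance 65.0 against 39.2 CPM for lung and 41.5 against 16.8 CPM for pancreas. The part of this in the counts of rich spots was not tested. The neural progenitor list was also highest in the Zic1 and Acta1 regions (496.0 and 471.1 CPM). In the Lmx1a region, also described below, Nes made up 178.8 of the 247.2 CPM of this list. Pax6 had 0 UMIs and Olig2 had 2 in that region.

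Clustering of the 789 spots by their expression gave 17 regions, named here by their leading genes. Genes that lead a region helped to define it, and their levels are a description. Of the 17 regions, 8 held spots of WT4 alone and 1 of KO4 alone. With a coarser clustering 11 regions were found.

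**Figure D4:**
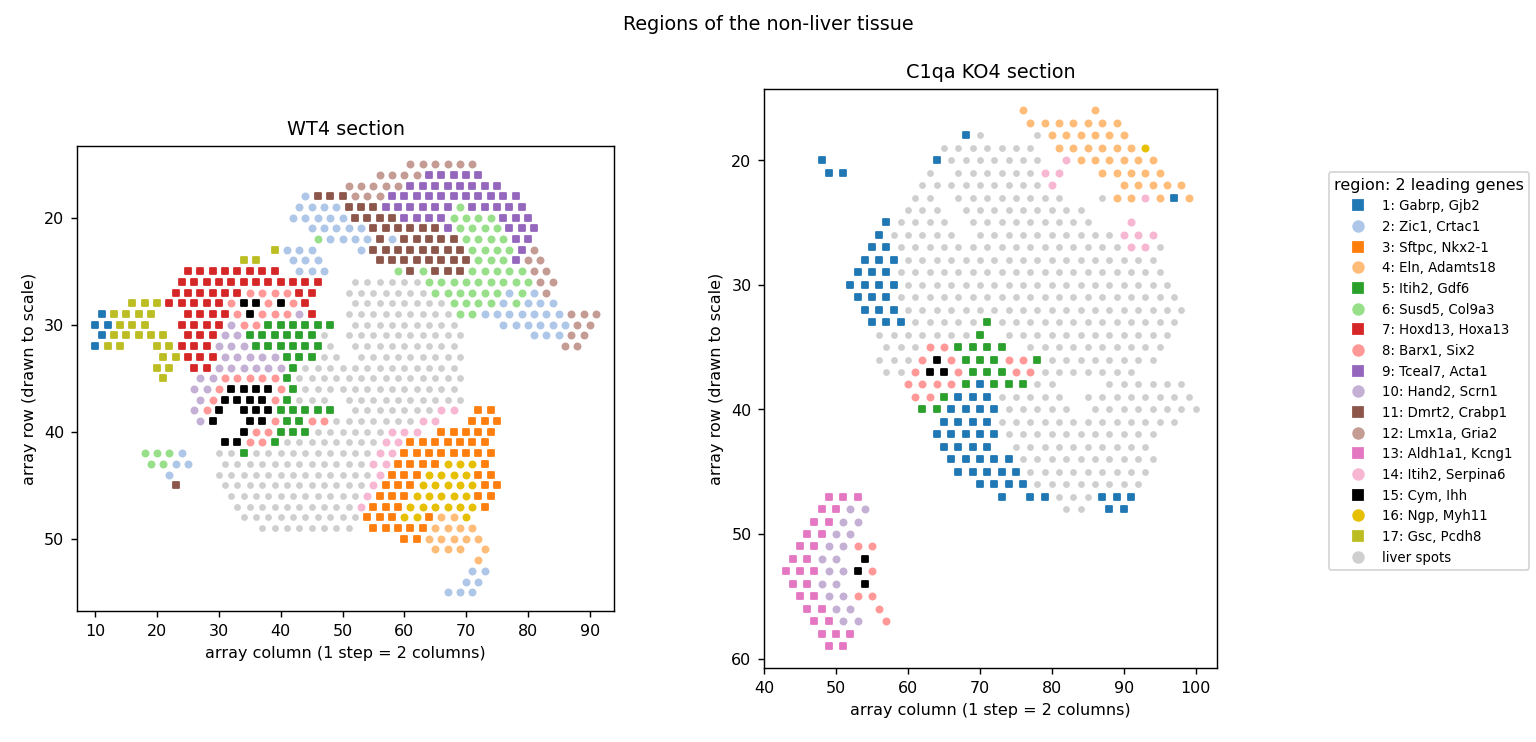
Spots at their array positions (horizontal, array column; vertical, array row), coloured by region, with liver spots in grey. In WT4 the Acta1, Zic1, Col9a3, Crabp1 and Lmx1a regions lie mostly in an arc above the liver, the Hoxd13 region to its left and the Sftpc region to the right of its lower part; in KO4 the Aldh1a1 region is in a detached piece at the lower left.

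The arc above the liver of WT4 held muscle and cartilage genes, in regions that also had a few spots elsewhere. The Acta1 region (50 spots, leading genes Tceal7, Acta1, Myh7b and Ramp3) had 2470 CPM of Acta1, against 321.7 CPM in the other non-liver spots, and its skeletal muscle list summed to 14629 CPM. The Zic1 region (63 spots, of which 7 lay in the piece to the right of the lower liver and 4 in a separate piece of 10 spots) had 15015 CPM of the same list (5.87-fold), with 1876 CPM of Acta1 and 2171 CPM of Myh3. Both were muscle-rich, with Myog at 838.5 CPM in the Zic1 and 728.6 CPM in the Acta1 region, and they differed in other genes. Zic1, a factor of dorsal mesoderm, was at 478.7 CPM in its region and 15.6 CPM in the other non-liver spots, and Pax1, a factor of the sclerotome, at 166.9 against 19.3 CPM. Postn, a matrix protein of connective tissue, was at 1273 CPM in the Acta1 region against 203.0 CPM elsewhere. Next to the Acta1 region lay most of the Col9a3 region (56 spots, 5 of them in the piece of 10 spots), with 4338 CPM of Col2a1, 930.7 CPM of Sox9, the factor that forms cartilage, and a cartilage list at 9156 CPM against 659.6 CPM (13.9-fold).

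The Lmx1a region (35 spots, leading genes Lmx1a, Gria2, Glis3 and Tmem26) lay on the outer rim and had 975.5 CPM of Prrx1 against 133.4 CPM, 3548 CPM of Col1a1 and a connective tissue list at 21308 CPM (1.90-fold). Its embryonic globins summed to 10860 CPM, against 4152 CPM in the other non-liver spots, with 25.7% of the UMIs in 1 spot and a median of 4430 CPM over its spots. The Crabp1 region (43 spots) had 1242 CPM of Crabp1, a retinoic acid binding protein, against 169.9 CPM, with Dmrt2, Foxd1 and 4 Hox genes among its leading genes.

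To the left of the liver in WT4 lay regions led by Hox genes of high-numbered groups. The Hoxd13 region (54 spots) had 713.5 CPM of Hoxd13 against 6.63 CPM in the other non-liver spots and 255.5 CPM of Hoxa13 against 7.33 CPM. Gata2, Osr2, Gata3 and Aldh1a2 (933.1 against 161.1 CPM) led it too, and Wt1, a factor of mesothelium and urogenital tissue, was at 156.9 CPM. The Gsc region (27 spots) next to it had Gsc at 244.2 against 6.13 CPM, Hoxa11 at 118.8 against 12.3 CPM and Col9a1 at 650.4 against 114.9 CPM. Its cartilage list stood 3.18-fold higher (4496 CPM, and 3524 CPM without its highest spot), with Sox9 at 560.0 CPM and Runx2 at 222.7 CPM.

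Lung genes lay in the piece of 126 spots to the right of the lower liver of WT4. The Sftpc region (60 spots) led with Sftpc, the surfactant protein of distal lung epithelium, at 71.7 against 2.90 CPM, Nkx2-1 at 137.9 against 8.58 CPM, and Wnt2 and Tbx4, signals and factors of lung mesenchyme, at 191.8 against 15.5 CPM and 98.6 against 10.8 CPM. Its lung list summed to 836.4 CPM (6.25-fold). The same piece held 26 of the 27 spots of the Myh11 region, with Myh11, smooth muscle myosin, at 331.5 against 24.7 CPM and a smooth muscle list at 3156 CPM (3.06-fold). Neutrophil genes also led this region (Ngp, S100a8, Camp and S100a9), but 61.1% of its neutrophil UMIs were in 1 spot. The list was at 577.9 CPM with that spot and 234.3 CPM without it, and the median spot of the region had 0 CPM of S100a8.

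The Eln region (16 spots in WT4, 41 in KO4) was 1 cluster with unlike contents. Elastin, encoded by Eln, was at 4524 CPM in its WT4 and 1482 CPM in its KO4 spots, against 77.2 CPM in the other non-liver spots. It was unevenly spread, with UMIs in 42 of the 57 spots and a median of 332.4 CPM over them, against 3030 CPM for the summed counts. Fbln5, which builds elastic fibres, was at 913.6 and 666.9 CPM. Heart genes were in the KO4 spots: Myh6 was at 1591 CPM, Myl7, the atrial light chain, at 1512 CPM and Tnnt2, cardiac troponin T, at 781.5 CPM. In the WT4 spots these were at 2.46, 34.4 and 9.82 CPM. Nppa, made in working heart chambers, was counted 22 times in the KO4 and 0 times in the WT4 spots. The heart list thus stood at 4193 CPM in KO4 and 142.5 CPM in WT4 within the same region.

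Gut and pancreas genes lay to the left of the liver in WT4, and gut genes in 2 pieces in KO4. The Cym region (22 WT4 and 6 KO4 spots) led with Cym, a digestive protease, at 181.1 against 1.84 CPM, Ihh, a signal of gut epithelium, at 247.0 against 8.56 CPM, Tspan8 and Cdx2. Its intestinal list summed to 288.9 CPM (8.82-fold), and Epcam stood at 818.5 CPM in the WT4 and 480.3 CPM in the KO4 spots. The list was unevenly spread, with a median of 116.0 CPM over the spots. Cdx2 had UMIs in 12 and Cym in 16 of the 28 spots, while Ihh and Tspan8 had UMIs in all 28. The Barx1 region (30 and 23 spots) had Barx1 at 197.5 CPM in WT4 and 406.2 CPM in KO4 and Six2 at 374.7 and 811.0 CPM, with Lhx1 at 1.40 and 2.94 CPM. Of the kidney list it was therefore Six2 that was high there. Barx1 had UMIs in 32 and Six2 in 33 of the 53 spots of the Barx1 region. Their medians over these spots were 233.6 and 56.5 CPM. The Hand2 region (25 and 20 spots) had 483.4 and 565.9 CPM of Hand2, a factor of gut mesenchyme and sympathetic cells. Its pancreas genes were in the WT4 spots, with Cpa1 at 334.3 and the glucagon gene Gcg at 401.6 CPM, while the KO4 spots held 5 and 2 UMIs of them. Most spots of this region held little of them: the pancreas list had a median of 84.2 CPM over its spots and a sum of 732.7 CPM.

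The piece of KO4 that lay farthest from the liver (59 spots, a median of 16 steps away) held the Aldh1a1 region mainly on its left side, with 29 spots (0 in WT4). Aldh1a1, a retinoic acid enzyme, was at 257.9 against 13.5 CPM in the other non-liver spots. The acetylcholine receptors Chrm2 and Chrna3 were at 138.5 and 71.6 CPM, Ret, the receptor of enteric nerve precursors, at 181.5 CPM and Myocd, which drives smooth muscle genes, at 364.9 CPM. Its neuron list stood 2.81-fold and its smooth muscle list 2.33-fold higher than in the other non-liver spots, with Tubb3 at 176.7, Sox10 at 97.4 and Acta2 at 1515 CPM. The same piece held 20 spots of the Hand2, 7 of the Barx1 and 3 of the Cym region.

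A pair of regions lay next to the liver. The Serpina6 region (17 and 11 spots, a median of 1 step away) held liver genes such as Itih2 at 107.4 CPM and Serpina6 at 70.2 CPM, below their liver levels, and skeletal muscle genes at 5641.6 CPM in WT4 and 6102.6 CPM in KO4. Myh3 was at 735.8 CPM in its WT4 and 890.4 CPM in its KO4 spots, and its 11 KO4 spots held 226 of the 262 Myh3 UMIs of the non-liver spots of KO4. The Gdf6 region (37 and 20 spots, a median of 2 steps away) had Hand2 at 481.8 and 502.5 CPM and the neurotrophin receptor gene Ntrk3 at 109.1 and 58.1 CPM. Itih2, Pklr and Hbb-bs, genes of hepatocytes and red cells, also led the Gdf6 region. In it the erythroid list summed to 10275 CPM (3.58-fold over the other non-liver spots), the hepatocyte genes outside the rule to 617.2 CPM (3.61-fold) and the embryonic globins to 9015 CPM (2.21-fold); their part in the Hand2 and Ntrk3 values was not tested.

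The Gabrp region lay almost wholly in KO4 (72 spots, and 5 in WT4), a median of 2 steps from the liver. Gabrp was at 117.8 against 1.54 CPM and Gjb2 at 143.7 against 2.36 CPM in the other non-liver spots. Krt5, of basal skin cells, was at 64.6 CPM, with UMIs in 29 of the 77 spots and a median of 0 CPM. Gabrp and Gjb2 had UMIs in 42 and 44 of these spots. Platelet genes were high in the same region: Pf4, platelet factor 4, was at 933.6 against 47.1 CPM, with 28.9% of its UMIs in 1 spot and a median of 162.4 CPM over the spots. The platelet genes were unevenly spread, since 1 spot held 30.1% of the megakaryocyte UMIs. The list was at 1545 CPM with that spot and 1099 CPM without it, with a median of 322.8 CPM over the spots. Blood and liver genes were also higher in the Gabrp region. The erythroid list was at 9809 CPM (3.27-fold) and the hepatocyte genes outside the rule at 523.8 CPM (2.87-fold). Their part in the platelet values was not tested. The other non-liver spots were mostly of WT4. The median non-liver spot of WT4 had 1559 CPM of the erythroid and 64.1 CPM of the hepatocyte list, that of KO4 2729 and 196.1 CPM. The part of the section in these folds was not tested.

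Hox genes were higher beside the liver than in it. Of 39 tested, 31 were called higher and 0 lower, and 37 were higher in both sections. They summed to 926.8 against 111.0 CPM in WT4 and 928.3 against 209.7 CPM in KO4. Hoxc12 and Hoxd12, the others, were low in both summed classes, though together they reached 36.3 CPM (85 UMIs) in the Hoxd13 region. Hoxc12 was at 1.13 against 1.39 CPM and 3.67 against 3.52 CPM, and Hoxd12 at 4.55 against 0.726 CPM and 1.84 against 1.93 CPM. Hoxd13 was at 78.0 against 1.27 CPM in WT4 and 8.98 against 5.37 CPM in KO4.

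The highest paralogue group differed between regions. In the Sftpc region group 5 was highest at 343.4 CPM and groups 7 to 13 lay between 1.59 and 11.1 CPM. In the Col9a3 region group 9 was highest (187.9 CPM) and in the Zic1 region group 10 (316.1 CPM). Groups 9 and 10 were highest in the Crabp1 region (343.9 and 332.9 CPM), group 10 in the Gsc region (348.2 CPM, with 183.5 CPM of group 11) and group 13 in the Hoxd13 region (986.0 CPM). In the Aldh1a1 region of KO4 groups 4 and 5 were highest, at 215.9 and 204.4 CPM. The Barx1 region had 173.2 and 170.8 CPM of the same groups. These are sums over 1 cluster each, with no replicate section, and no test was made.

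**Figure D5:**
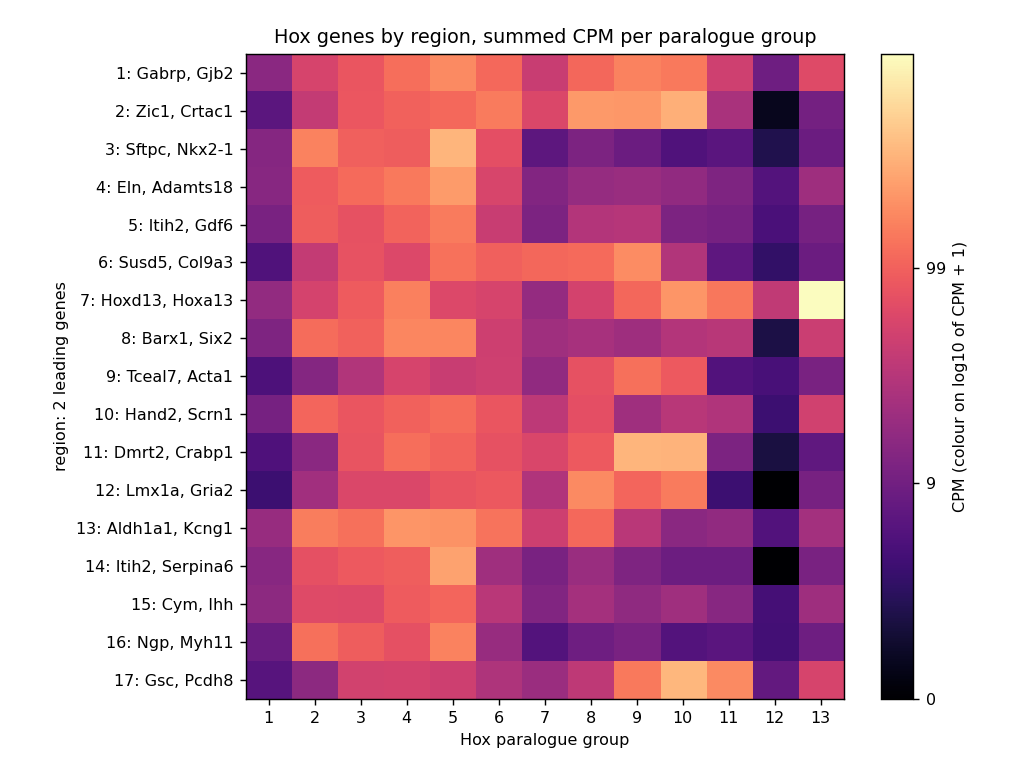
Colour gives the summed CPM of each Hox paralogue group (horizontal axis) in each of the 17 regions (vertical axis), on a log10 scale of CPM + 1. The brightest cell is group 13 in the Hoxd13 region at 986.0 CPM, and group 5 is the brightest of the Sftpc region at 343.4 CPM.

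The same split was made in the sections of the other litter, which had no part in choosing the 789 spots. There 3887 of 13396 tested genes passed the edgeR test with an adjusted p under 0.05 (29.0%), 2007 higher and 1880 lower in the non-liver spots. Col1a1 was at 6424 CPM in the non-liver and 238.4 CPM in the liver spots of WT2, and at 9044 and 385.6 CPM in KO2 (edgeR log2 change 3.85, adjusted p = 0.0052). Myh3 was at 5515 and 0.718 CPM in WT2 and at 566.7 and 16.1 CPM in KO2 (8.03, edgeR adjusted p = 0.0496). Acta1, at 38657 and 4.26 CPM and at 1854 and 72.8 CPM, did not pass (8.08, edgeR adjusted p = 0.0792). Both muscle genes were higher in the non-liver spots of each section, by very unequal amounts. Of the 13379 genes tested in both pairs of sections, 3207 were called in both, which is 46.6% of the calls in WT4 and KO4 and 82.6% of those in WT2 and KO2, and 3190 of them (99.5%) had the same direction. These calls share the 10 genes that made the classes. The organs beside the liver were not the same. Star and Cyp11a1, which make steroid hormones, were at 897.7 and 557.2 CPM in the non-liver spots of WT2 and at 2.08 and 1.56 CPM in those of WT4.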

How the data were processed

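Visium sections of FFPE tissue gave 1 library each. For the cross sections the authors deposited raw UMI counts per gene and spot from Space Ranger 4.0.1 (per the file headers, 19465 features; the submitters' processing notes name mm10), without normalization. Companion tables, deposited with them, name the spots and genes and give the place of each spot. Counting is by probe pairs, so levels of different genes also depend on their probes.

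Spots were split by the 10 liver genes, counts were summed per section and class, and CPM is relative to all UMIs of the class. The test was the edgeR 4.0.16 quasi-likelihood F test (R 4.3.3, limma 3.58.1, TMM factors, filterByExpr) with class and section as terms. The 10 genes stayed in the library sizes and out of the test. Pairing follows from the 2 classes sharing a section. DESeq2 1.42.0 was an alternative. In simulated counts for WT4 and KO4 with 200 changed genes, a dispersion of 0.01 gave 94% (log2 change 1) and 100% (log2 change 2) recovery, and a dispersion of 0.1 gave 2% and 54%. The fitted dispersion was 0.0295 in WT4 and KO4 and 0.0922 in WT2 and KO2. Regions came from Leiden clustering (scanpy, resolution 1, 2000 variable genes, 20 components, 15 neighbours), without batch correction and without doublet calls, since a spot holds several cells. Spots are not replicates, and no test was made across them. p-values measure the spread between 2 sections.

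The members and gene lists were chosen with earlier results of these data known. Named genes were Col1a1, Myh3 and Acta1, the 10 rule genes, C1qa, the first 4 genes of each list, members of 4 families (myosin heavy chains, fibrillar collagens, muscle factors, Hox), the 20 largest rises and 10 largest falls outside the lists at 50 CPM or more, and 8 leading genes per region. Any other gene named was chosen after its values were seen. Intervals were not computed, and image files were not used here. Some genes that these rules select are not reported here.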

Additional observations from a re-analysis of the deposited data

Results flagged for a closer look

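The bone list moved in opposite directions in the sections of the 2 litters, and the difference was not tested. Its summed CPM in non-liver over liver spots was 3.42 in WT4 and 1.65 in KO4 but 0.82 in WT2 and 0.84 in KO2. The non-liver spots of WT2 and KO2 number 130 and 74.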

How the results depend on the processing

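Without the pairing by section (no replicate block), 4443 genes were called in WT4 and KO4 in place of 7182. The other alternatives gave 6015 (DESeq2) to 8186 (library totals only) calls, and those of WT2 and KO2 lay between 2891 and 4231. Leaving out a section leaves no residual degrees of freedom, so no count was made. A split at 1% gave 600 non-liver spots in WT4 and 271 in KO4, and a split at 0.25% gave 193 in KO4. Spots rich in an organ list numbered 522 and 183 at 5 times the liver level and 348 and 57 at 20 times. A coarser clustering, added after seeing the data, gave 11 regions. Over leaving out each section, 22 to 25 organ lists were higher in the non-liver spots. Of 2762 alternative values for 218 named genes, 1 changed its sign: Nkx2-1 had a log2 change of -0.063 without WT4 and of 3.53 without KO4; the cause was not tested. On leaving out a section, 126 of these values moved by more than the spread between sections, for 80 genes without WT4 and 46 without KO4. DESeq2 lost 18 of the named calls, upper-quartile factors 22 and the fit without pairing 15. KO4 held fewer UMIs in its non-liver spots than WT4, so that genes at a few CPM rest on few counts there.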

Other observations

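Genes that replace each other during development stood at different ratios in the sections, all of which are labelled E14.5. In the non-liver spots the count of Myh8, the perinatal myosin, was 0.162 times that of Myh3 in WT4 and 0.160 times in KO4, but 2.56 times in WT2 and 1.38 times in KO2. Ckm over Myh3 was 0.00570 and 0.0229 in WT4 and KO4 and 1.52 and 0.734 in WT2 and KO2. In the liver spots Afp, the fetal counterpart of albumin, stood at 0.751 and 0.843 times Alb in WT4 and KO4 and at 0.232 and 0.470 times in WT2 and KO2. The 10 liver genes took a median of 1.49% and 1.44% of UMIs in the liver spots of WT4 and KO4 and 10.0% and 5.08% in those of WT2 and KO2.

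The embryonic globins separated the littermates. In the non-liver spots their counts were 2.11 times those of the adult globins in WT4 and 0.0522 times in KO4, and in the liver spots 0.0759 and 0.00569 times. In WT2 and KO2 they were 0.00221 and 0.00493 times in the non-liver and 0.000375 and 0.000615 times in the liver spots. Which of embryo, stage, blood content or plane of section moves with these ratios was not tested.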
